A study of Takifugu rubripes with 9 samples.

Results

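The brain miRNA profile of torafugu (*Takifugu rubripes*, a pufferfish) was taken from 1 small RNA library and set against the 7 other tissue libraries with an annotated read table, namely eye, heart, intestine, liver, slow muscle, ovary and testis. By the study's methods the tissues came from 2 adult fish, and their small RNA was sequenced on a SOLiD instrument, with 1 library per tissue and no treatment. The labels do not say how the individuals were divided among the libraries, and the fast muscle library was not analysed here. RNA was extracted from a fixed weight of each tissue, and neither the methods nor the labels say which part of the brain was taken. Reads were summed by miRNA name and by arm of the hairpin, the 5p arm being the strand near the 5′ end and the 3p arm the strand near the 3′ end, and reads that the files place on a hairpin but on no annotated arm were kept apart as precursor-only reads. These sums are called arm names below, and their level is given as CPM, the reads per 1000000 annotated reads of the library.

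miRNAs are short RNAs cut from hairpin precursors. Loaded into an Argonaute protein, they pair with messenger RNAs mainly through bases 2 to 8, the seed, and lower the output of those messages. Vertebrate nervous tissue is known for a set of abundant miRNAs that includes miR-124 and miR-9 in the neuronal lineage, miR-219 and miR-338 in oligodendrocytes, which make myelin, and miR-132 and miR-212, which in rodent neurons are induced by activity.

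The most abundant brain sequence of the arms on which the comparison turned is shown 5′ to 3′ with the seed in capitals. The first group holds names called higher in brain, chosen to show the neuronal and glial seeds and miR-135a-5p. miR-132-3p and miR-212-3p shared a seed, as did miR-218a-5p and miR-218b-5p, which parted only at the 3′ end.
miR-137-3p: tTATTGCTtgagaatacgcgt
miR-153a-3p: tTGCATAGtcacaaaagtgat
miR-219-5p: tGATTGTCcaaacgcaattct
miR-132-3p: tAACAGTCtacagccatggtc
miR-212-3p: tAACAGTCtacagtcatggct
miR-218b-5p: tTGTGCTTgatctaaccatgca
miR-218a-5p: tTGTGCTTgatctaaccatgt
miR-128-3p: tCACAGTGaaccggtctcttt
miR-135a-5p: tATGGCTTtctattcctatgt
miR-7-5p: tGGAAGACtagtgattttgttg

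The second group shows names that hold reads of nearly the same molecule. The second most abundant brain read of miR-338-3p and the leading read under the name miR-3065-5p, a human entry, parted only at the 3′ end. They carried the same seed, so the split between these names is one of annotation. The strand of the match was not checked, so the miR-3065-5p read need not have the sequence of the human entry.
miR-338-3p: tCCAGCATcagtgattttgttgc
miR-3065-5p: tCCAGCATcagtgattttgttga

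The brain library held 929645 annotated reads, and the others held 1207961 in intestine, 882181 in heart, 724758 in slow muscle, 537629 in ovary, 458800 in eye, 437295 in liver and 54540 in testis. The smallest level taken as detectable, 3 reads, equalled 3.23 CPM in brain, 2.48 to 6.86 CPM in the other libraries except testis, and 55.0 CPM in testis, so a 0 in testis is a weak statement. With no replicate library, no tissue difference could be tested. The intervals below are exact 95% Clopper-Pearson intervals, cover counting error only, and do not allow for copies made by PCR. In whole tissue, fewer cells of a type and less RNA per cell cannot be told apart.

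Brain reads were less concentrated on a few miRNAs than those of the 7 other libraries. The 10 most abundant arm names took 51.4% of brain reads, against 60.2% in heart and 77.5% at most among the other libraries, and 10 arm names were needed to reach 0.5 of the reads in brain but 1 to 7 elsewhere. At an equal depth of 437295 reads, brain was calculated to hold 3423 distinct sequences, above the eye at 3060 and the other libraries at 2520 to 2768, testis being too shallow for this calculation. In the order of brain reads, the leading names were miR-124-3p at 176731 CPM, miR-100-5p at 73799 CPM, miR-125b-5p at 49563 CPM, mir-129 precursor-only at 36108 CPM, miR-338-3p at 35755 CPM, miR-124b-3p at 31797 CPM, miR-9-5p at 31313 CPM, miR-125a-5p at 27807 CPM, miR-145-5p at 25855 CPM and miR-135a-5p at 25692 CPM. By matched reads the eye was the nearest library. Arm by arm, 58.3% of reads could be matched between brain and eye, compared with 38.2% for heart and 25.1% for intestine. miR-124-3p alone, 17.7% of brain reads and higher in eye, was a large part of the match with eye. By rank over 299 arm names, the Spearman correlation with brain was 0.692 for eye, 0.672 for liver and 0.596 for heart.

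An arm name was called higher in brain where it had at least 100 CPM there, was at least 2-fold above the highest of the other 7 libraries, and had a lower limit of that ratio above 1. Of 299 arm names with at least 100 CPM in some library, 45 were higher in brain (15.1%), of which 29 were mature arms and 16 precursor-only. The ratio was at least 5 for 25 of them and at least 10 for 12. Under the same rule testis had 29 higher names, intestine 27, eye 26, liver 14, slow muscle 12, ovary 9 and heart 5, and the testis count stands on the shallowest library. The 45 names together made up 28.7% of brain reads, 5.79% of eye reads and 1.24 to 3.20% of the reads in the other libraries. The eye was the next library for 20 of the 45, ovary and liver for 6 each, heart and slow muscle for 4 each, intestine for 3 and testis for 2. Over all 299 names, the median ratio of brain to the highest other library was 0.219. A name could enter the 299 through 1 library alone, brain or another. The shares of list names called, given below, therefore describe the lists and do not test them.

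**Figure D1:**
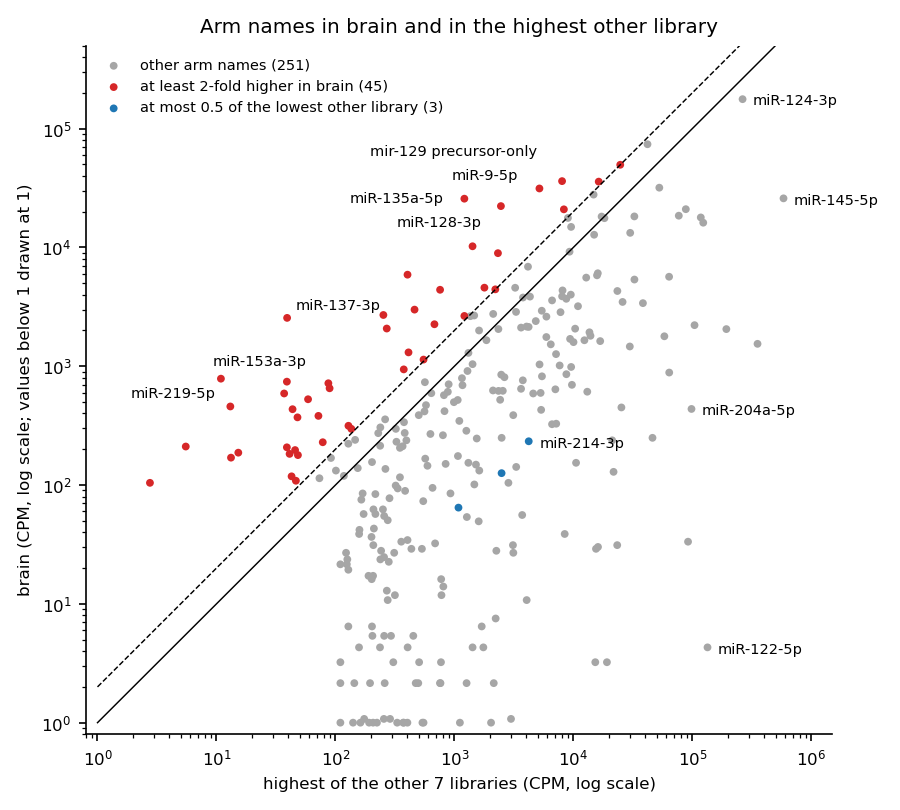
Level in brain (vertical axis, CPM) against the highest level among the other 7 libraries (horizontal axis, CPM) for the 299 arm names with at least 100 CPM in some library, both on log scales with values below 1 drawn at 1, with the solid line at equality and the broken line at a ratio of 2. The 45 red points lie on or above the broken line, miR-124-3p lies below equality because of the eye, and the 3 blue points are the names called lower in brain.

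The neuronal names were the main body of the brain set. The neuronal list, which comprises miR-124, miR-9, miR-128, miR-129, miR-132, miR-137, miR-138, miR-153, miR-212, miR-218 and miR-7, had 61 arm names in the files. Of its 30 names with at least 100 CPM in a library, 23 were higher in brain, against the 15.1% of all names given above. None was lower, but that call needed at least 100 CPM in every other library, which most of these names lacked. The median ratio to the highest other library was 5.92 against 0.219 for all. Their summed level, 371067 CPM in brain and 355209 CPM in eye, did not set brain above the eye under every scaling, the ratio being 1.04 as scaled here, 0.96 with TMM factors, 0.75 with DESeq2 size factors and 0.94 with mature matches only. The 7 names that were not called were those of the miR-124 family, miR-138a-5p and mir-7 precursor-only. Among the 23, names such as miR-137-3p and miR-153a-3p had at least 100 CPM in brain alone, so they entered the 30 through brain. The 23 of 30 and the median ratio thus describe the list and are no test of it.

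miR-137-3p, which takes part in the maturation of mammalian neurons, was nearly restricted to brain. It had 2550 CPM in brain, 39.2 in eye, 33.1 in intestine, 6.86 in liver, 4.53 in heart, 4.14 in slow muscle, and no read in ovary or testis. Brain was thus far above every other library, with a ratio to the eye of 65.0 (41.0 to 110).

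The miR-153 family, of which zebrafish members are known to act on the synaptic protein SNAP-25, was carried under several names. miR-153a-3p reached 785 CPM in brain, 10.9 in eye, 6.80 in heart, 4.97 in intestine and 0 to 2.29 CPM elsewhere. The ratio to the eye was 72.1, with a wide interval (30.7 to 222.6). miR-153b-3p behaved otherwise, with 940 CPM in brain and 375 CPM in liver, a ratio of 2.51 (2.12 to 2.98), while the eye had 28.3 CPM. miR-153c-3p had 187 CPM in brain and 15.3 CPM in eye. Both miR-153a-3p and miR-153b-3p begin with the seed TGCATAG, and all reads with that seed had 1857 CPM in brain and 375 CPM in liver (ratio 4.95), the liver being the next library for the family through miR-153b-3p.

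miR-132-3p and miR-212-3p, whose genes mir212 and mir132 lie next to each other in the RefSeq annotation of the fTakRub1.2 assembly, were both higher in brain. miR-132-3p had 2698 CPM in brain, 253 in eye, 203 in ovary, 55.0 in testis, 32.3 in intestine, 16.0 in liver, 12.4 in slow muscle and 5.67 in heart. miR-212-3p had 741 CPM in brain, 39.1 in ovary, 26.2 in eye, 4.14 in slow muscle, 3.40 in heart, 2.48 in intestine, and no read in liver or testis. The ratio to the highest other library was 10.7 (8.86 to 13.0) for miR-132-3p and 18.97 (12.3 to 30.9) for miR-212-3p. In both cases ovary and eye were the next libraries, and the precursor-only reads followed: mir-132 precursor-only reads had 652 CPM in brain and 89.3 CPM in ovary, and mir-212 precursor-only reads had 435 CPM in brain and 43.6 CPM in eye. Of these brain reads, 99.8% for mir-132 and 100% for mir-212 were like no annotated arm read, so their side of the hairpin was not placed.

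miR-128-3p, which restrains the excitability of neurons in mice, was both abundant and enriched. It had 22253 CPM in brain, 2459 in heart, 1907 in eye, 1155 in testis, 762 in liver, 673 in slow muscle, 669 in intestine and 290.2 in ovary. It was detected in every library and brain stood 9.05-fold above heart (8.66 to 9.46).

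miR-218a-5p and miR-218b-5p, expressed in motor neurons of mice and chicks, differed in their background outside the brain. miR-218b-5p had 5892 CPM in brain, 403 in testis, 320 in heart, 206 in liver, 190 in ovary, 170.0 in eye, 121 in slow muscle and 63.7 in intestine, a ratio to testis of 14.6 (9.64 to 23.3). miR-218a-5p had 4580 CPM in brain but 1786 in heart, 1207 in ovary and 1000.4 in eye, a ratio to heart of 2.56 (2.42 to 2.72). By name, the levels of the pair were thus close in brain and far apart in heart. The leading miR-218b-5p read in heart ended before the bases at which the pair part. Reads of 20 nt were 42.6% of miR-218b-5p reads in heart and 9.02% in brain, against 0.0635% of miR-218a-5p reads in heart. The name given to such short reads need not tell the pair apart.

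miR-9-5p, known from neural progenitors and from neurogenesis, was a brain and eye miRNA. It had 31313 CPM in brain, 5181 in eye, 86.9 in liver, 55.0 in testis, 7.45 in intestine, 2.27 in heart, 1.38 in slow muscle, and no read in ovary. The ratio to the eye was 6.04 (5.80 to 6.30), and every other library was below 100 CPM. The 3p strand followed under 2 names, miR-9-3p with 371 CPM in brain and 48.0 CPM in eye, and mir-9 precursor-only with 8939 CPM in brain and 2321 CPM in eye.

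miR-138, which acts on the size of dendritic spines in rat neurons, and miR-7 had their next level outside the nervous system. miR-138-5p had 20901 CPM in brain, 8315 in liver, 2769 in testis, 1018 in eye, 438 in intestine, 304 in slow muscle, 167 in ovary and 112 in heart, so liver exceeded the eye and the ratio was 2.51 (2.43 to 2.60). miR-138b-5p had 2255 CPM in brain and 679 CPM in liver. miR-7-5p, known from the hypothalamus and the endocrine pancreas, had 4397 CPM in brain, 757 in intestine, 440.0 in testis, 297 in liver, 135 in slow muscle, 71.9 in eye, 29.5 in heart and 26.04 in ovary. Its eye level was below that of intestine, testis and liver, and the ratio to intestine was 5.81 (5.402 to 6.24). The neuroendocrine list pairs miR-7 with miR-375, which marks pancreatic islet and enteroendocrine cells, and miR-375-3p had only 7.53 CPM in brain against 2221 CPM in intestine.

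**Figure D2:**
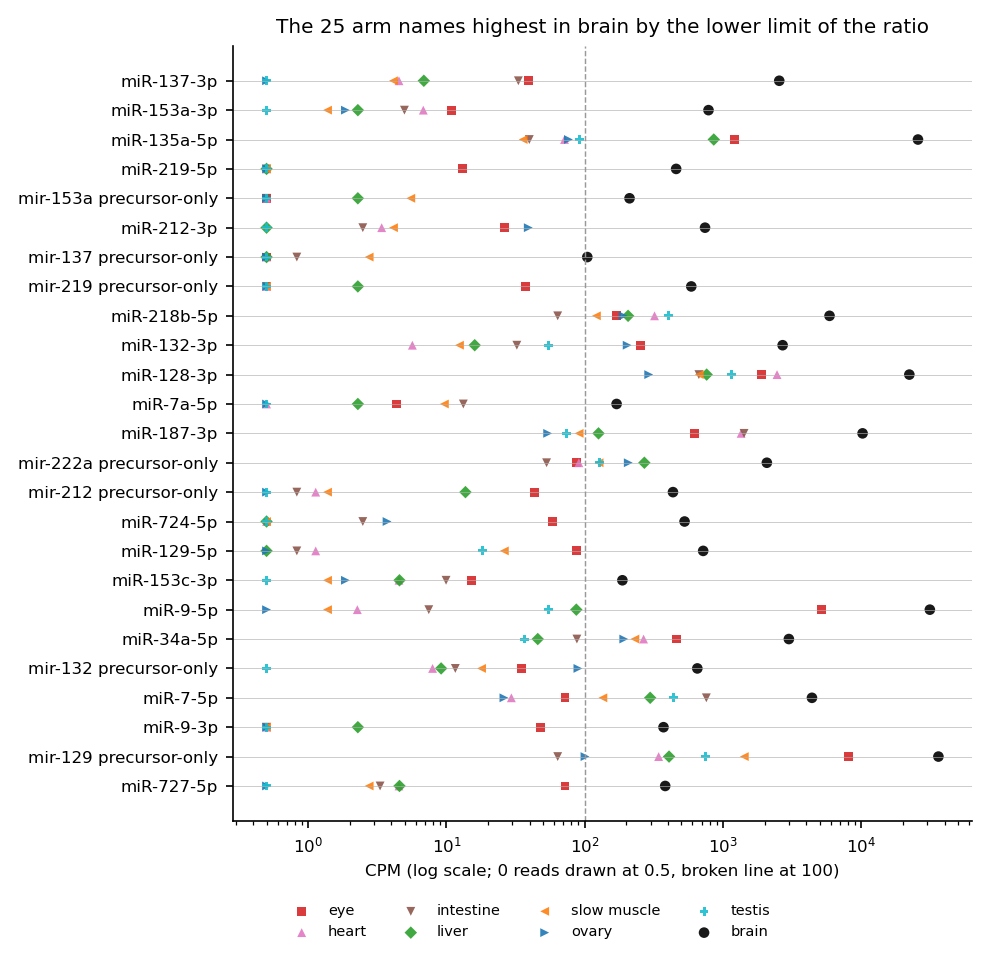
CPM on a log axis of the 25 arm names with the largest lower limit of the ratio of brain to the highest other library (rows), one symbol per library, with 0 reads drawn at 0.5. Brain (black) is the rightmost symbol in every row by the rule of the choice, and the next symbol is the eye in 15 of the 25 rows, and another library in the rest, such as ovary for miR-212-3p, intestine for miR-187-3p and heart for miR-128-3p.

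The glial list was short and all 4 of its names were higher in brain, against 15.1% of all names. These names came from miR-219 and miR-338 alone. All but miR-338-3p had at least 100 CPM in brain only and so passed that minimum through brain. miR-219-5p, which drives oligodendrocyte differentiation in mice and zebrafish, had 458 CPM in brain and 13.1 CPM in eye, and no read in the other 6 libraries. The ratio to the eye was 35.0 (16.0 to 96.02). Reads of mir-219 outside the annotated arm were as clear, with 589 CPM in brain, 37.1 in eye and 2.29 in liver. miR-338-3p, a partner of miR-219 in that lineage, was far more abundant and far less restricted, with 35755 CPM in brain, 16321 in slow muscle, 8045 in eye, 5086 in liver, 3188 in intestine, 3158 in ovary, 1667 in heart and 917 in testis. Slow muscle was the next library, and brain exceeded it 2.19-fold (2.15 to 2.24). With DESeq2 size factors this ratio was 1.83 and miR-338-3p was not called higher, and that of the whole list went from 2.26 to 1.89. miR-3065-5p, the near-identical read shown above, had 1307 CPM in brain and 411 CPM in slow muscle, and with both names joined by their seed the ratio was 2.21.

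The let-7, miR-99, miR-100 and miR-125 names, known from the timing of development, were abundant in brain and moderately raised. The list summed to 199221 CPM in brain, 112765 in heart, 88684 in eye and 43789 in intestine, the lowest, a ratio to heart of 1.77 (1.75 to 1.78). Of its 27 names with at least 100 CPM in a library, 7 were higher in brain, against 15.1% of all names, and the median ratio to the highest other library was 1.30 against 0.219 for all. miR-125b-5p had 49563 CPM in brain, 24749 in eye, 21669 in ovary, 21483 in heart, 18812 in testis, 10268 in liver, 8670 in slow muscle and 3277 in intestine. Its ratio to the eye, 2.00 (1.962 to 2.04), lay at the threshold, and it fell to 1.84 with TMM factors and 1.44 with DESeq2 size factors. miR-100-5p, at 73799 CPM in brain and 41949 CPM in heart, stayed below the threshold at 1.76, as did miR-125a-5p at 1.88 with testis as the next library. Without the testis library the miR-125a-5p ratio was 3.48. It was 2.54 with TMM factors and 4.62 with the study's totals of 18–25 nt reads. In these settings miR-125a-5p was called higher, but with DESeq2 size factors it was not. let-7i-5p, at 208 CPM against 39.1 CPM in ovary, and let-7d-5p, at 2648 CPM against 1212 CPM in eye, were higher in brain by name, although let-7d-5p lost its call with DESeq2 size factors at 1.57. In intestine, liver and slow muscle the leading let-7d-5p read was another than in brain, eye, heart and ovary. The brain's leading read made up 53.9% of let-7d-5p reads in brain and 38.5% in eye, so the name mixes sequences. Joined with all let-7 names of the 5p arm the ratio was 0.99, and the abundant let-7a-5p had 18228 CPM in heart and 17609 CPM in brain.

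The other 11 higher names belonged to none of the lists. miR-135a-5p had 25692 CPM in brain, 1212 in eye, 858 in liver, 91.7 in testis, 76.3 in ovary, 71.4 in heart, 39.7 in intestine and 35.9 in slow muscle, a ratio to the eye of 21.2 (19.5 to 23.1). Its relative miR-135b-5p, with the same seed, had 17689 CPM in brain and 8991 CPM in eye, a ratio of 1.97 just under the threshold. miR-187-3p had 10215 CPM in brain, 1420 in intestine, 1351 in heart, 619 in eye and 53.9 to 126 CPM in the other libraries, a ratio of 7.19 (6.83 to 7.58). miR-34a-5p, a target of p53 in mammals, had 2994 CPM in brain and 462 CPM in eye, with 36.7 to 266 CPM elsewhere. miR-724-5p and miR-727-5p, which match zebrafish entries, had 527 and 382 CPM in brain, 58.9 and 71.9 CPM in eye, and at most 4.57 CPM elsewhere. miR-139-5p had 4434 CPM in brain and 2207 CPM in liver, a ratio of 2.01 that was 1.93, under the threshold, with the study's totals of 18–25 nt reads. Joined with its precursor-only reads by the shared seed the ratio was 1.66. mir-222a precursor-only had 2075 CPM in brain and 270 CPM in liver, and nearly all of those reads lay on the 5p side of the hairpin. The remaining names were miR-3065-5p, whose leading read was shown above beside miR-338-3p, and 3 precursor-only names, mir-103, mir-737 and mir-2779. The reads of mir-2779 matched a hairpin of the silk moth and those of mir-737 a hairpin of zebrafish, and whether either is a torafugu miRNA cannot be told from the files.

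Just inside the threshold, after miR-125b-5p and miR-139-5p, stood mir-103 precursor-only at 2.07, miR-100a-5p at 2.18 and let-7d-5p at 2.19. Just outside it stood miR-135b-5p at 1.97, miR-125c-5p at 1.94, miR-125a-5p at 1.88, miR-727-3p at 1.84 and miR-99-5p at 1.82. When reads were grouped by their bases 2 to 8 instead of by name, 42 of 283 groups were higher in brain (14.8%) and 3 were lower (1.06%). This grouping was chosen after the values by name had been seen. The groups of miR-137 (69.6), miR-132 with miR-212 (12.1), miR-128 (8.75), miR-7 (5.90), miR-218 (4.98), miR-135 (4.26), miR-138 (2.56) and miR-125 (2.36) were among the higher ones, the value being the ratio to the highest other library.

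The miR-124 family was the most abundant of the brain but did not separate it from the eye. miR-124-3p had 264089 CPM in eye, 176731 in brain, 597 in liver, 337 in slow muscle, 224 in heart, 202 in testis, 104 in intestine, and no read in ovary. Brain was 0.669 of the eye level and 296-fold above liver, the next library. miR-124b-3p had 52727 CPM in eye and 31797 CPM in brain, while miR-124c-3p was nearly level at 9279 and 9197 CPM. Leaving the eye out raised the number of higher names from 45 to 63, and the 18 added names were those of miR-124, miR-135b, miR-181, miR-182, miR-183, miR-204b, miR-216b, miR-125c and mir-489. These were named after their values had been seen. Among them miR-181a-5p had 3785 CPM in brain and 3771 in eye, with 419 to 844 CPM elsewhere. miR-204b-5p had 6876 CPM in brain, 4152 in eye, 477 in testis, 199 in ovary and at most 24.8 CPM in the other libraries, whereas miR-204a-5p was an eye miRNA, with 98278 CPM there and 437 CPM in brain. miR-183-5p and miR-182-3p, known from photoreceptors and hair cells, had 429 and 154 CPM in brain, 0.0801 and 0.117 of their eye level, and 22.2-fold and 33.6-fold the level of the highest library after brain and eye.

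The lists that mark muscle, gut, liver, epithelium and gonad were far below their highest library in brain, but not always low among the other libraries. The striated muscle list (miR-1, miR-133, miR-206 and miR-499) summed to 2692 CPM in brain and 385240 CPM in slow muscle, with a median of 2552 CPM over the other 7 libraries. The digestive list (miR-192, miR-194 and miR-215) had 1717 CPM in brain and 385235 CPM in intestine, with a median of 618 CPM over the other libraries and 185 CPM in eye, and the epithelial list, led by the miR-200 family, had 1575 CPM in brain and 97083 CPM in intestine. The liver list, miR-122, had 7 reads or 7.53 CPM in brain against 153530 CPM in liver, and the gonad list, miR-202 and miR-430, had 4 reads in brain. None of the names of these lists with at least 100 CPM in a library was called higher in brain, namely 18 of striated muscle, 5 digestive, 8 epithelial, 3 of liver and 6 of gonad, against 15.1% of all names. The blood and vessel lists were present: miR-144 and miR-451 of red cells summed to 21618 CPM in brain, within the range of 2597 to 90220 CPM of the other libraries, miR-126 of endothelium to 25033 CPM (18460 to 164148 CPM elsewhere), and the leukocyte list to 4985 CPM (5050 to 27052 CPM elsewhere). Their part in the brain levels of other names was not tested.

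**Figure D3:**
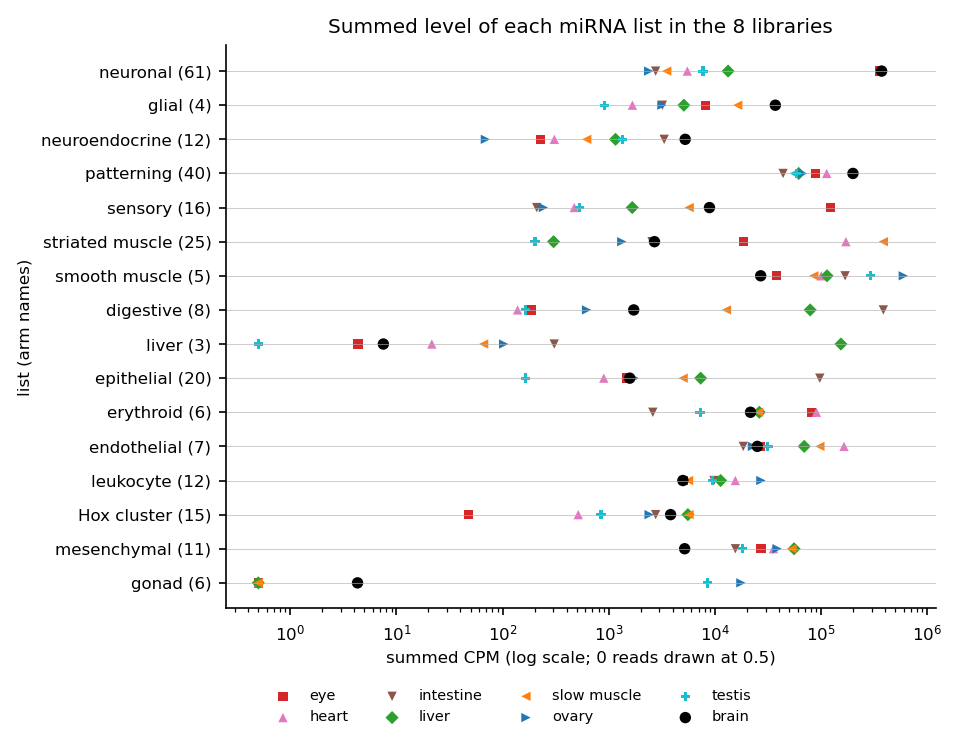
Summed CPM on a log axis of each of the 16 lists (rows, with the number of arm names in parentheses) in the 8 libraries, with 0 reads drawn at 0.5. Brain (black) is rightmost for the neuronal, glial, neuroendocrine and patterning lists, at 371067 CPM beside 355209 CPM in eye for the neuronal list, and leftmost for the smooth muscle, leukocyte and mesenchymal lists. With the study's totals of 18–25 nt reads testis is leftmost for these 3, and eye is rightmost for the neuronal list with TMM or DESeq2 factors or mature matches only.

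The Hox cluster list, miR-10 and miR-196, whose genes lie within the Hox clusters of vertebrates, had nearly no reads in eye. It summed to 3820 CPM in brain and 48.0 CPM in eye, with 516 to 5694 CPM in the other libraries. miR-10c-5p had 5422 CPM in liver, 2929 in brain, 1907 in intestine, 1817 in ovary, 1730.2 in slow muscle, 568 in testis, 469 in heart and 10.9 in eye. miR-10b-5p had 522 CPM in brain and 30.5 CPM in eye, and miR-10d-5p had 231 CPM in brain and 4.36 CPM in eye.

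Names were called lower in brain where the lowest of the other libraries had at least 100 CPM, brain had at most 0.5 of it, and the upper limit of the ratio was below 1. There were 3 (1.0% of 299), and names below 100 CPM in any other library could not be called. miR-214-3p, known from mesenchyme and mapped near miR-199 in vertebrates, had 233 CPM in brain, 725 in liver, 972 in testis, 1486 in intestine, 1652 in eye, 3133 in heart, 4129 in ovary and 4211 in slow muscle, a ratio to liver of 0.322 (0.270 to 0.384). miR-2184-5p, named from zebrafish, had 126 CPM in brain, 366 in liver and 486 to 2491 CPM elsewhere, a ratio of 0.344 (0.269 to 0.439). miR-30e-3p had 64.5 CPM in brain, 367 in testis and 450.1 to 1081 CPM elsewhere, a ratio of 0.176 (0.105 to 0.308). Per annotated read all 3 were lower in brain than in every other library. With identical sequences only, miR-2184-5p had a ratio of 0.97 to the lowest other library and was not called. With the study's totals of 18–25 nt reads as the denominator, which lowers the gonad levels, none was called lower and the ratio to the lowest other library turned to 3.25 for miR-214-3p, 2.38 for miR-30e-3p and 1.60 for miR-2184-5p. The mesenchymal list as a whole, miR-199 and miR-214, had 5180 CPM in brain, below its lowest other library, intestine, at 15562 CPM, but 3.87-fold above testis with those totals. miR-145-5p of smooth muscle, although the ninth name of the brain by reads, was likewise lowest in brain, at 25855 CPM against 37574 CPM in eye and 583322 CPM in ovary, but 1.21-fold above testis with those totals.

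The low miR-30e-3p had a counterpart in the use of the mir-30e hairpin. Its 5p strand had 2613 CPM in brain, within the range of the other libraries (1014 to 5929 CPM). The 3p arm made up 2.41% of the mir-30e reads in brain (1.84 to 3.09%), 10.1% in liver, 10.8% in slow muscle, 19.8% in testis, 21.97% in heart, 25.1% in eye, 30.7% in ovary and 38.1% in intestine. No interval of another library reached that of brain. Of 105 miRNAs with at least 100 reads of both arms together in brain and in at least 3 other libraries, 28 had reads of both arms. Only these 28 could differ between libraries. Among them mir-30e was the only one whose share in brain lay outside the others with intervals apart (0.952% of the 105). mir-4286, mir-140, let-7b, mir-24b, mir-210, mir-221 and mir-128 also lay outside the range, but the intervals overlapped. Of the annotated arm reads of mir-4286 and mir-140, 82.2 and 79.3% were on the 5p arm in brain, against 84.1 to 94.3% and 31.1 to 78.0% elsewhere. These shares, that of mir-30e included, leave out precursor-only reads and most reads that the study's looser criteria added. Whether the mir-30e shares hold with those reads was not tested. For mir-140, 594 precursor-only brain reads, all like the 3p arm, stood beside 360 annotated 5p and 94 annotated 3p reads. The mir-4286 5p reads averaged 18.2 nt in brain, and whether mir-4286 is a torafugu miRNA was not tested. The leading reads of the mir-30e arms matched zebrafish entries.
miR-30e-5p: tGTAAACAtccttgactggaagc
miR-30e-3p: cTTTCAGTcggatgtttgcag

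Of the 45 names of the brain set, 16 were not on an annotated arm. With mature matches only, 28 of 211 names were called higher, against 45 of 299 with precursor-only names kept. The share called was thus similar with and without them. Precursor-only reads were 7.73% of brain reads, within the range of 2.998 to 8.47% in the other libraries. mir-129 was the main case. Its annotated 5p arm had 668 reads or 719 CPM in brain and 87.2 CPM in eye, and its annotated 3p arm had 3 brain reads. mir-129 precursor-only had 33568 brain reads, nearly all of which overlapped the annotated 3p read. They reached 36108 CPM in brain, 8030 in eye, 1425 in slow muscle, 752 in testis, 407 in liver, 342 in heart, 100.4 in ovary and 63.7 in intestine, a ratio to the eye of 4.50 (4.35 to 4.65), and were the fourth name of the brain. For mir-9, 96.3% of 8310 precursor-only reads lay on the 3p side. The reads that follow lead these names, and the second mir-9 read begins 1 base later, so its seed is shifted by 1.
miR-129-5p: cTTTTTGCggtctgggcttgc
mir-129 precursor-only: aAGCCCTTaccccaaaaagcat
mir-9 precursor-only: aTAAAGCTagataaccgaaagt
mir-9 precursor-only, later start: tAAAGCTAgataaccgaaagtaa

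Most arms began at the same base in brain as elsewhere. Of 105 arms with at least 100 reads in brain and in at least 3 other libraries, 74 had at least 95% of brain reads at the common 5′ start, with a median of 98.8%, and 3 lay outside the other libraries with intervals apart (2.86%), none of which was apart when each distinct sequence was counted once. miR-101a-3p had a start 1 base later in 41.7% of brain reads (39.3 to 44.3%), 34.9% in slow muscle, 28.8% in heart, 28.7% in intestine, 27.5% in eye, 17.99% in ovary and 14.9% in liver. All start shares are of the reads that could be placed on the most common read of the arm. For let-7e-5p these were 84.9% of reads over all libraries. Of the placed let-7e-5p reads, 22.9% began 1 base earlier in brain (21.4 to 24.5%), 17.6% in heart, 12.6% in eye, 11.8% in liver, 10.5% in intestine, 10.4% in slow muscle and 4.06% in ovary. For miR-142a-5p of leukocytes the share of the common start was 72.9% in brain (65.2 to 79.7%) and at most 56.8% in the 3 other libraries with enough reads. The starts of miR-9-5p could be compared with the eye alone and were looked at after the values had been seen: the later start made up 24.0% of brain reads (23.5 to 24.5%) and 15.9% of eye reads (14.4 to 17.4%). The mir-9 precursor-only reads went the other way. Their later start made up 45.2% of placed brain reads (44.1 to 46.3%) and 63.2% in eye (60.2 to 66.1%). A shift of 1 base moves the seed, as the reads of each pair show.
miR-101a-3p, common start: gTACAGTActgtgataactga
miR-101a-3p, later start: tACAGTACtgtgataactga
let-7e-5p, common start: tGAGGTAGtagattgaatagtt
let-7e-5p, earlier start: tTGAGGTAgtagattgaatagt
miR-9-5p, common start: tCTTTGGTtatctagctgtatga
miR-9-5p, later start: cTTTGGTTatctagctgtatga

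**Figure D4:**
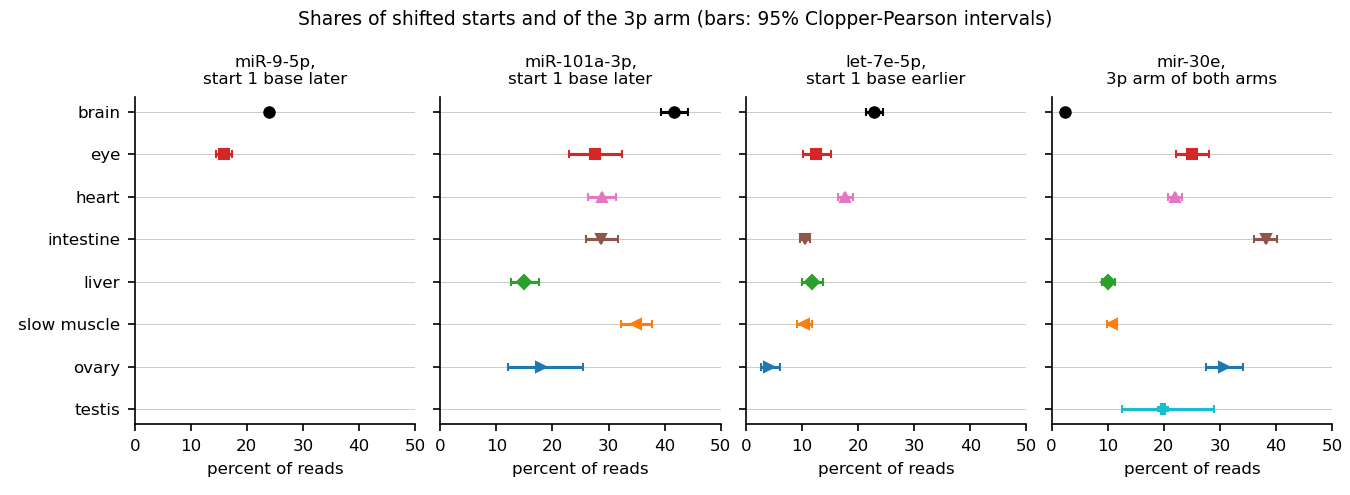
Percent of reads (horizontal axes) with a shifted 5′ start for miR-9-5p, miR-101a-3p and let-7e-5p, and on the 3p arm for mir-30e, in each library with at least 100 reads (rows), with exact 95% Clopper-Pearson intervals as bars. Among the arms drawn, brain (black) has the highest share of each shifted start, 24.0, 41.7 and 22.9%, and the lowest share of the mir-30e 3p arm, 2.41%. Not drawn are miR-142a-5p and mir-9 precursor-only, whose shifted starts had a smaller share in brain than in the libraries compared. Start shares are of the reads that could be placed.

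Brain reads were more often 21 nt long than those of most libraries. Reads of 21 nt were 32.7% and those of 22 nt 37.8% of brain reads, close to 32.6 and 46.2% in eye and 33.9 and 43.2% in intestine, and apart from 16.2 and 62.2% in slow muscle. Reads of 20 nt were 7.77% of brain reads, above the 2.34 to 6.61% of the other libraries. miR-124-3p held 29.4% of the 21 nt reads of brain, followed by miR-100-5p with 9.87% and miR-124b-3p with 6.81%. Of miR-124-3p reads, 54.4% were 21 nt in brain and 66.1% in eye, so the 21 nt form of this arm was the smaller share in brain. The mean length of an arm lay outside the range of the other libraries with intervals apart for 18 of 105 arms (17.1%), of which 16 were shorter in brain and 2 longer. The differences were of a fraction of 1 base, and were not set apart from the higher share of 20 nt reads in brain. let-7-5p averaged 22.3 nt in brain and 22.6 to 22.8 nt elsewhere, miR-18-5p 22.1 nt against 22.4 to 22.6 nt, miR-27b-3p 21.4 nt against 21.7 to 21.9 nt, and miR-145-5p 21.9 nt against 22.1 to 22.3 nt. miR-221-3p was longer, at 21.8 nt against 20.7 to 21.4 nt.

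Some names of the brain set differed more in length, although they were outside the count above, which takes annotated arms with enough reads in 3 other libraries. They were picked after their values had been seen. miR-7-5p had 57.4% of its brain reads at 22 nt and 8.44% at 24 nt, against 35.5 and 29.7% in intestine and 23.1 and 47.7% in liver, where 130 reads were counted. miR-135a-5p had 50.6% of brain reads and 52.7% of eye reads at 21 nt, but 16.0% in liver, where 58.4% were 23 nt. miR-9-5p ran the other way, with 43.5% of brain reads at 23 nt against 24.8% in eye, where 53.8% were 21 nt. mir-129 precursor-only had 42.7% of brain reads at 21 nt, between 47.2% in liver and 32.1% in slow muscle, with 17.6% in eye and 13.2% in heart.

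**Figure D5:**
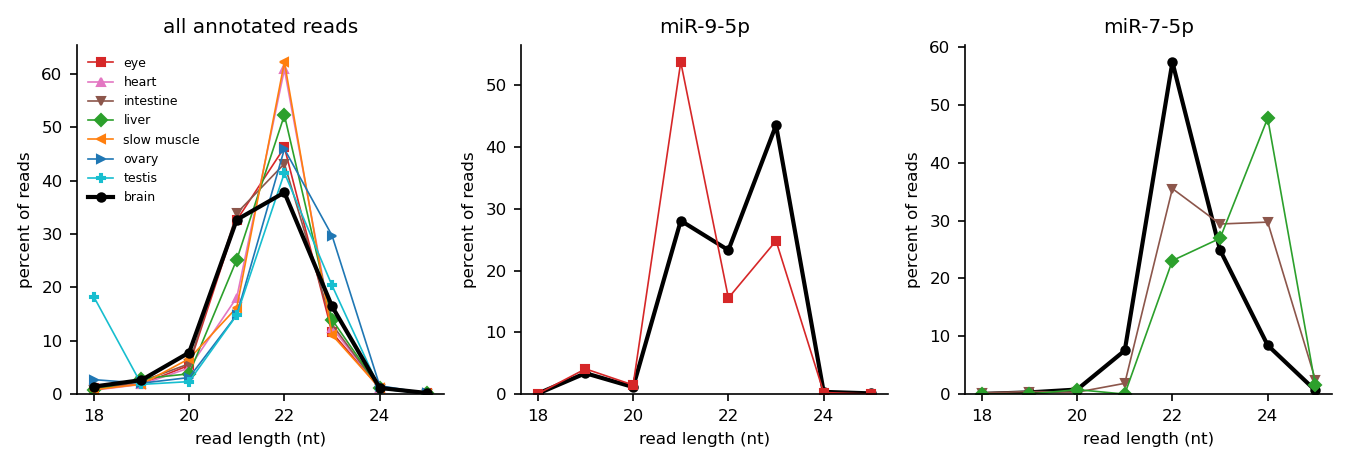
Percent of reads (vertical axes) by read length in nt (horizontal axes) for all annotated reads in the 8 libraries (left), for miR-9-5p in brain and eye (middle) and for miR-7-5p in brain, intestine and liver (right), the libraries with at least 100 reads. Brain (black) has 32.7% of all reads at 21 nt, 43.5% of miR-9-5p reads at 23 nt, and 57.4% of miR-7-5p reads at 22 nt.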

How the data were processed

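Small RNA libraries of 8 torafugu tissues were analysed, with 1 library per tissue. Before deposit, the authors filtered the reads for quality, took off adaptor sequence and matched the 18–25 nt sequences to miRBase in CLC genomics workbench. The deposited values are raw read counts per distinct sequence, with no mismatch to an entry of any of 85 species, so that 1 torafugu family can be split over several names and reads of an unannotated arm appear as precursor-only. The files also give the length and the number of mismatches of each sequence. The study's looser matching criteria called many more reads miRNA, and those reads are largely absent from these counts. The strand of each match was not checked here.

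Counts were summed by name, with the copy number dropped, and by arm, and scaled to CPM of the summed count of the file. Ratios of libraries carry exact conditional Clopper-Pearson intervals, and no p-value was computed. The 5′ start of a mature read was set against the most common read of its arm without gaps, allowing 2 mismatches, a 4 nt shift and no less than 14 nt in common. Reads that could not be placed in this way were left out of the start shares. For precursor-only reads the shift allowed was 6 nt. Mean lengths carry normal 95% intervals, and arm and start shares Clopper-Pearson ones. Distinct sequences at equal depth were calculated from the counts by rarefaction. The text names the 10 leading brain names, up to 25 higher and 10 lower names by the limit of the ratio, list members with 100 CPM in a library, and up to 5 names each for arm use, starts and length, plus the remaining higher names and those said to be picked later. The members, lists and thresholds were chosen with earlier results of these data known. Alternatives used the 18–25 nt totals of the study, edgeR 4.0.16 TMM factors, DESeq2 1.42.0 size factors, other thresholds, match types, names and libraries. Scripts ran in Python 3.11.15 and R 4.3.3 and were tested on simulated data. RefSeq gene names were found for 20 of the 34 higher names without their arm.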

Additional observations from a re-analysis of the deposited data

How the results depend on the processing

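Beside the 45 names reported higher in brain, the count was 21 with a minimum of 1000 CPM, 25 at a fold of 5, 12 at a fold of 10, and 28 with mature matches only, which leaves out precursor-only names. Under the other alternatives it lay between 31, with identical matches only, and 63, without eye. Of the 45 names, 44 were also called with the 18–25 nt totals, 44 with TMM factors and 38 with DESeq2 size factors. With the last, miR-125b-5p, miR-338-3p, let-7d-5p, miR-100a-5p and the precursor-only reads of let-7d, mir-137 and mir-737 were lost. Leaving out any 1 of the other libraries, or testis and ovary together, removed none of the 45 names. The rule nearly ensures this, since the ratio to the highest of fewer libraries cannot fall, so it is no check of the calls. The count of lower names, 3, was less firm. It was 0 with the 18–25 nt totals, with a minimum of 1000 CPM and at a fold of 10, 1 at a fold of 5, 5 with DESeq2 size factors, with a minimum of 10 CPM, at a fold of 1.5 and without testis and ovary, and 6 without eye. With the 18–25 nt totals the ratio to the lowest other library turned to 2.38 for miR-30e-3p, 3.25 for miR-214-3p and 1.60 for miR-2184-5p. With the letters of names dropped, let-7d-5p and let-7i-5p turned to 0.99 and let-7d precursor-only to 0.82. With identical sequences only, miR-100-5p was called higher at 2.22, and let-7i-5p and miR-153c-3p lost their calls. In that setting miR-2184-5p, at 0.97, was no longer called lower. Counting each distinct sequence once gave 11 arms with a mean length outside the range, in place of 18, and 0 with a common start share outside it, in place of 3. Among the 16 lists, the glial list fell from 2.26 to 1.89 with DESeq2 size factors, and the others stayed on their side of a 2-fold ratio with the 18–25 nt totals, mature matches only, TMM and DESeq2 factors. The 18–25 nt totals raised the ratio of brain to testis by 3.76 and to ovary by 1.63 on the log2 scale for every name, and TMM and DESeq2 factors moved the ratios to the other libraries by between -0.47 and 0.43. Grouping by bases 2 to 8, leaving out heart, intestine, liver, slow muscle or ovary, and TMM and DESeq2 factors for the lists were added after seeing the data. No paired analysis was possible because each tissue had 1 library, and for the same reason no library could be left out within a tissue. Testis, with 54540 reads, limits what can be said of low names there.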
